A study of Chelonus formosanus with 6 samples.

Results

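EcKinase is the protein-domain family of ecdysteroid kinase-like enzymes. In the head transcriptome of Chelonus formosanus, a parasitoid wasp of the family Braconidae, 12 of 41986 unigenes carried it, and none of these had a vertebrate as the species of its best database hit. They are described here with the 16 unigenes of assembly cluster DN26069, which holds 1 of the 12, DN26069_c0_g2, so that 27 unigenes are covered in all. EcKinase members were taken by their domain annotation and cluster members by the shared number in their identifiers. The cluster was chosen by the measured difference between the sexes in these same libraries, in which DN26069_c0_g2 (TRINITY_DN26069_c0_g2 in full) and its neighbour DN26069_c0_g3 (TRINITY_DN26069_c0_g3) were higher in female heads. The sex difference of that pair is therefore given as a description, with no test.

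Poly(A) RNA of whole heads was sequenced from 3 libraries of females and 3 of males, all labelled day 1, with no treatment named. The series title gives the aim as finding reference genes for quantitative PCR, and the female-to-male comparison is the one that the libraries allow. The labels do not say whether a library is 1 wasp or a pool, so p-values measure only the spread between these samples. In whole heads, fewer cells of a type and less RNA per cell cannot be told apart.

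Ecdysteroids are the steroid hormones that time moulting and metamorphosis in insects and also act in adult reproduction and behaviour. In the silkworm, ecdysteroid 22-kinase adds a phosphate to these hormones and yields an inactive form that can be stored. Few members of the wider family have a known substrate, and the sequences resemble choline and aminoglycoside kinases, so the domain name does not say which molecule a given member acts on.

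Libraries held 17937390 to 19517887 counts each, and 21196 unigenes had enough counts to be tested with edgeR's quasi-likelihood test. At an adjusted p of 0.05, 358 of them (1.69%) were higher in females and 235 (1.11%) in males, 2.8% in either direction. Levels are given as CPM, counts relative to the TMM-scaled size of the library, to compare a unigene between sexes, and as TPM, which corrects for transcript length, to compare unigenes. The median of log2 differences over all tested unigenes was -0.00 on the CPM scale. On the TPM scale the median was 0.11 towards females, a ratio of 1.08, and TPM ratios between sexes should be read against it. The summed CPM of muscle marker genes was 16781 to 23807 in females and 25633 to 29606 in males. That of fat body and storage genes was 8219 to 8998 and 10066 to 10445, and that of venom gland genes 8107 to 8648 and 7357 to 7785. These sums did not overlap between the sexes, while those of head sense organ, gut, ovary and testis genes did. The part of any of these sums in the results below was not tested. A sum weighs the most abundant genes most. Of the fat body and storage genes edgeR called 3 higher in females and 1 in males, and of the venom gland genes 0 and 2. The calls in these lists thus do not follow the direction of the sums. The fat body list also holds accidental matches, named below.

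The EcKinase members came from 10 assembly clusters. Their best hits were in other braconid wasps for 10 of the 12, with 6 in Microplitis demolitor, 3 in Diachasma alloeum and 1 in Fopius arisanus. The names of their orthologous groups differed. Of the 12, 6 were named Juvenile hormone-inducible protein and 2, DN41_c0_g1 and DN25882_c2_g13, Ecdysteroid 22-kinase. DN26370_c2_g3 was placed in a group of unknown function. DN26069_c0_g2, whose best hit was a hypothetical protein of the ant Trachymyrmex cornetzi, had no group name and carried ontology terms of RNA polymerase II transcription factors. DN26493_c1_g3 and DN26493_c1_g7 had the same best hit and may be pieces of a single gene or close copies.

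DN26370_c2_g3 was the most abundant EcKinase member in both sexes, and it was higher in female heads. Its CPM was 1622, 1379 and 1514 in the female libraries and 714, 759 and 757 in the male ones. Every female library lay above every male library. The means were 1505 ± 122 and 743 ± 25.1 CPM (SD, n = 3 each). The log2 difference was 1.02 ± 0.09 (SE), a 2.02-fold level in females with a 95% interval of 1.77 to 2.31, and edgeR's adjusted p was 7.0e-05. By mean TPM it ranked 124 among all unigenes in females and 276 in males, with 984 ± 72.4 and 447 ± 13.9 TPM.

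Of the 11 EcKinase members outside cluster DN26069, all of which passed the filter on low counts, DN26370_c2_g3 alone was called higher in females. None was called higher in males and 10 were not called. In these 11, 2 had an unadjusted p under 0.05, beside 2543 (12%) of all tested unigenes, and DESeq2's Wald test, which called 3.86% of all unigenes in either direction, called 2 higher in females and 0 in males. Their median log2 difference was 0.05, beside -0.00 for all tested unigenes. In 3 of the 11 every female library lay above every male library, as it did in 8.77% of all tested unigenes, and in none did every male library lie above, as in 8.5% of all.

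**Figure D1:**
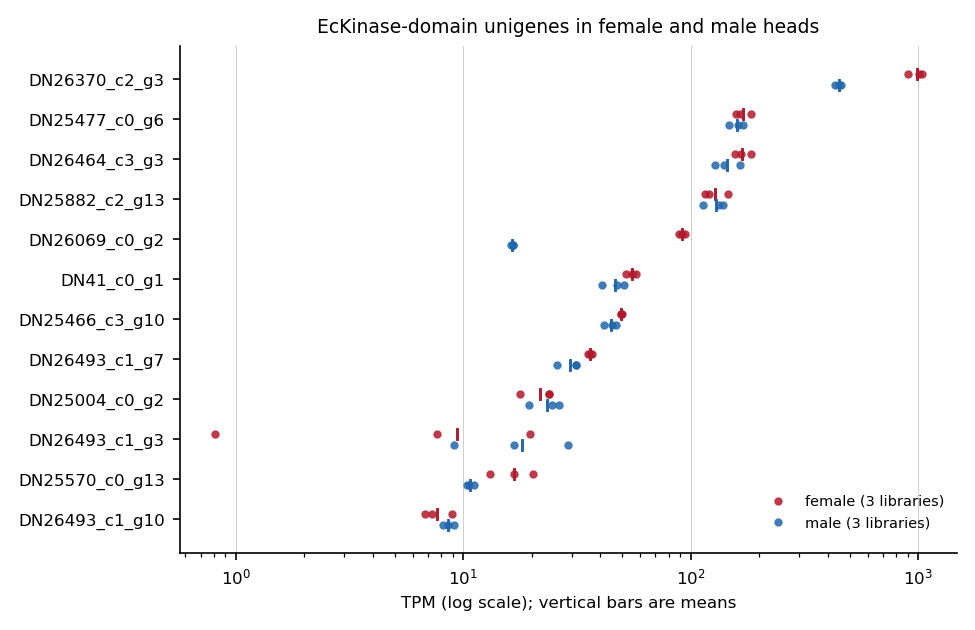
TPM of the 12 EcKinase unigenes on a log scale, with a point for each of 3 female and 3 male libraries and a bar at each mean. Every female point lies above every male point in 6 of the 12, which are DN26370_c2_g3, DN26069_c0_g2, DN41_c0_g1, DN25466_c3_g10, DN26493_c1_g7 and DN25570_c0_g13. DN26069_c0_g2 was chosen by its sex difference, so its place among the 6 carries no weight. Over all tested unigenes the share on this scale is 16.3%, and their median is shifted towards females.

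DN25570_c0_g13, of the Juvenile hormone-inducible protein group, was the member nearest to the threshold among those not called. Its CPM was 32.7, 21.4 and 26.8 in females and 19.1, 17.8 and 18.9 in males. The female values were all above the male ones but spread more widely, with female replicate 2 closest to the males. The log2 difference was 0.53 ± 0.14 (SE), with an adjusted p of 0.0974 in edgeR's test. Over the alternatives the adjusted p ran from 0.0224 in DESeq2 to 0.336 in edgeR without male replicate 2. It was under the threshold in DESeq2 and, at 0.0317, in edgeR without female replicate 2, and above it in the others. Without female replicate 1 the log2 difference was 0.38, with an adjusted p of 0.215 in edgeR.

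The next 3 members in abundance had similar mean levels in both sexes. DN25477_c0_g6 had 169 ± 13.2 TPM in females and 160 ± 11.5 in males (SD, n = 3 each), with a log2 difference in CPM of -0.03. DN26464_c3_g3 had 169 ± 14.3 and 144 ± 18.5 TPM, with a log2 difference of 0.06. DN25882_c2_g13, named as an ecdysteroid 22-kinase, had 127 ± 16.7 and 129 ± 13.5 TPM, with a log2 difference of -0.12. The libraries of the sexes overlapped for all 3. The other member with that name, DN41_c0_g1, had 55.0 ± 2.80 and 46.4 ± 5.18 TPM, with a log2 difference of 0.14 and an adjusted p of 0.600 from edgeR.

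Lower in the order stood DN25466_c3_g10 with 49.6 and 44.5 TPM, DN26493_c1_g7 with 36.1 and 29.6, and DN25004_c0_g2 with 21.8 and 23.5 in females and males. DN26493_c1_g7 was higher in every female library than in any male one, at a log2 difference of 0.18 and an adjusted p of 0.505 from edgeR. For the 8 uncalled members of at least 500 bases, the 95% intervals of the female-to-male ratio lay between 0.70 and 1.81. A p above the threshold does not show that the sexes were equal, and these intervals bound the difference. The remaining 2 are short, and DN26493_c1_g3, of 239 bases, varied from 0.81 to 19.6 TPM in females and from 9.08 to 28.9 in males. DN26493_c1_g10, of 447 bases, had 7.67 TPM in females and 8.61 in males. Counts more than 0.05 from a whole number, as arise when reads are divided between unigenes, occurred in the DN26493 members, DN41_c0_g1 and DN26464_c3_g3. Counts of DN26370_c2_g3 were up to 0.04 from a whole number in 6 libraries, and that of DN26069_c0_g2 was 0.01 away in 1. The distance does not give the number of reads divided, so the values of all these members are uncertain to an unknown extent.

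Summed over the 12 members, TPM was 1804, 1626 and 1783 in females and 1048, 1094 and 1089 in males, a ratio of 1.61. DN26370_c2_g3 made up 57.5%, 55.5% and 56.9% of the sum in females and 41.2%, 41.9% and 41.4% in males. Of the difference of 661 TPM between the mean sums, 537 came from DN26370_c2_g3 and 75.2 from DN26069_c0_g2. The other 10 members together had 662 ± 25.9 TPM in females and 614 ± 11.6 in males (SD, n = 3 each). Their ratio of 1.08 equals the median ratio of TPM over all tested unigenes to this precision.

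**Figure D2:**
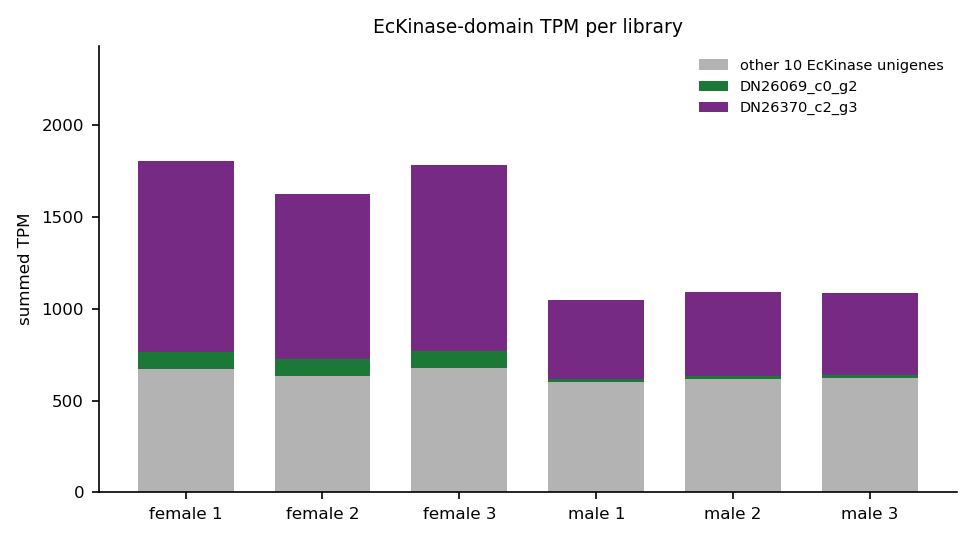
Summed TPM of the EcKinase unigenes in each library, stacked as DN26370_c2_g3, DN26069_c0_g2 and the other 10. The sums lie between 1626 and 1804 in females and between 1048 and 1094 in males, and the block of the other 10 differs least.

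Other unigenes of the clusters that hold EcKinase members were also examined. Outside DN26069 there were 97 of them, 63 of which were tested. Of these 63, edgeR called 1 higher in females and 1 in males, beside 2.8% of all tested unigenes in either direction. The first was DN26370_c2_g1, a sodium-independent sulfate anion transporter-like unigene in the cluster of DN26370_c2_g3, with a log2 difference of 0.38 ± 0.08 (SE) and an adjusted p of 0.0244 in edgeR's test. The second was DN25882_c2_g8, without a hit, with a log2 difference of -1.82 ± 0.39 and an adjusted p of 0.0332.

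Cluster DN26069 held annotations of unrelated genes. Of its 16 unigenes 7 had a database hit. These were a probable helicase with a zinc finger domain (c0_g1), an E3 UFM1-protein ligase 1 homolog (c1_g2), an alpha-methylacyl-CoA racemase (c0_g13), an octopamine receptor beta-1R-like (c1_g1), an uncharacterized pair (c0_g4 and c1_g4) and DN26069_c0_g2. The assembler groups transcripts that share sequence, and the labels themselves call such a group only loosely a gene. The name of the cluster therefore stands for its number in the assembly and not for a kinase locus.

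DN26069_c0_g2 was assembled as 7 transcripts, the longest of 4910 bases. It had 6413, 6661 and 6678 counts in female libraries and 1362, 1319 and 1457 in male ones. The values lay close together within each sex and far apart between them. Mean CPM was 347 ± 10.8 in females and 75.6 ± 2.27 in males (SD, n = 3 each), a ratio of 4.58. By mean TPM, 91.6 and 16.4, it ranked 1383 in females and 6662 in males.

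DN26069_c0_g3, of 1417 bases and 6 transcripts, had no database hit. It had 3449, 4085 and 3894 counts in the female libraries and 33, 21 and 25 in the male ones. Its reads were thus present in every male library, at a low level. Mean CPM was 200 ± 13.3 and 1.44 ± 0.32 (SD, n = 3 each), a ratio of 139. Its mean TPM of 552 in females placed it at rank 235 of all unigenes, and its 3.78 in males at rank 19360.

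The pair did not keep a fixed ratio between the sexes. For each count of DN26069_c0_g2 there were 0.538, 0.613 and 0.583 counts of DN26069_c0_g3 in females and 0.0242, 0.0159 and 0.0172 in males. DN26069_c0_g3 took 23.05%, 25.03% and 23.87% of the cluster's counts in females and 0.467%, 0.299% and 0.349% in males.

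The other 14 unigenes of the cluster did not show this difference. Of the 12 that passed the filter, edgeR called 0, beside 2.8% of all tested unigenes. At an unadjusted p under 0.05 in edgeR there were 0, beside 12% of all, and DESeq2 called 0, beside 3.86%. The median log2 difference of the 12 was -0.13, with a range from -0.57 for c0_g5 to 0.55 for c0_g7. Every female library lay above every male library in 2 of the 12, c0_g7 and c1_g3, beside 8.77% of all tested unigenes. Every male library lay above in 2, c1_g2 and c0_g13, beside 8.5% of all. The remaining pair, c0_g6 and c0_g9, had 8 and 9 counts in all female libraries together and 8 and 8 in males.

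Among the annotated neighbours, the helicase had 89.5 ± 1.0 CPM in females and 99.5 ± 8.21 in males (SD, n = 3 each), with a log2 difference of -0.15. The UFM1 ligase homolog, which attaches the small modifier UFM1 to proteins, had 81.0 ± 2.32 and 88.9 ± 4.33 CPM. The octopamine receptor, which responds to an amine transmitter of insects, had 49.3 ± 3.64 and 49.7 ± 6.53 CPM. Its log2 difference was -0.01, with a 95% interval from -0.25 to 0.22. The racemase, which acts on branched fatty acids, had 27.6 ± 0.461 and 29.98 ± 1.51 CPM.

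The levels of the cluster's unigenes are compared with each other in TPM, which allows for length. The UFM1 ligase homolog, the helicase and c0_g10, without a hit, had like mean levels in females of 34.6, 32.9 and 31.5 TPM, and the racemase had 27.0. Further down, c0_g12, c0_g7, the uncharacterized c0_g4, the octopamine receptor and the uncharacterized c1_g4 lay between 10.4 and 15.5 TPM in females and between 9.81 and 17.4 in males. The least abundant of those tested were c0_g11 with 6.57 TPM in females and 9.06 in males, c0_g5 with 5.02 and 7.85, and c1_g3, without a hit, with 2.46 and 2.0. Short unigenes rest on few counts, and the 95% interval of the female-to-male ratio of c0_g11, of 391 bases, ran from 0.263 to 1.78. Counts were up to 0.5 from a whole number for c0_g10 and c0_g7 and up to 0.47 for c0_g12. The values of c0_g10, c0_g7 and c0_g12 are therefore also uncertain to an unknown extent.

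The cluster's summed TPM was 817, 893 and 868 in females and 246, 234 and 237 in males. Without the pair c0_g2 and c0_g3 it was 201, 216 and 229 in females and 226, 214 and 216 in males, so that the sexes overlapped. Tested as a sum of counts, cluster DN26370 was 1.76-fold higher in females, with an adjusted p of 2.65e-05 in edgeR's test. That sum includes DN26370_c2_g3, called by itself above at 1505 and 743 mean CPM, so the call is no separate result. The 8 other clusters with an EcKinase member outside DN26069 were not called. Over all 9444 clusters tested, edgeR called 193 higher in females and 147 in males.

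**Figure D3:**
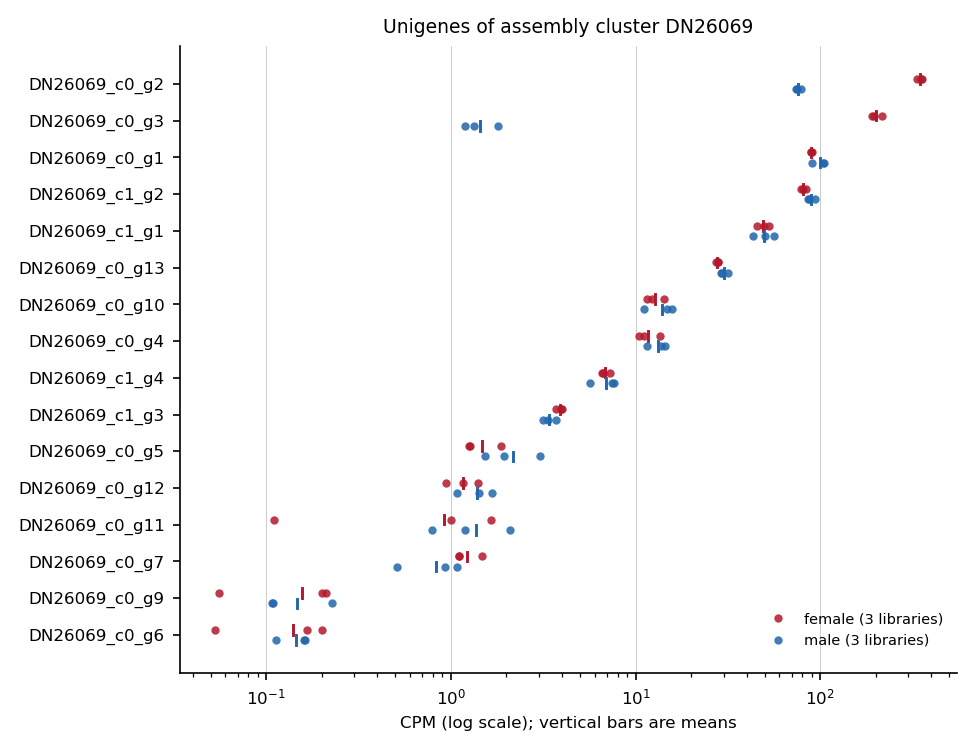
CPM of the 16 unigenes of cluster DN26069 on a log scale, with a point per library and a bar at each mean. The female and male points lie far apart for c0_g2 and c0_g3 and close together for the better covered of the others.

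**Figure D4:**
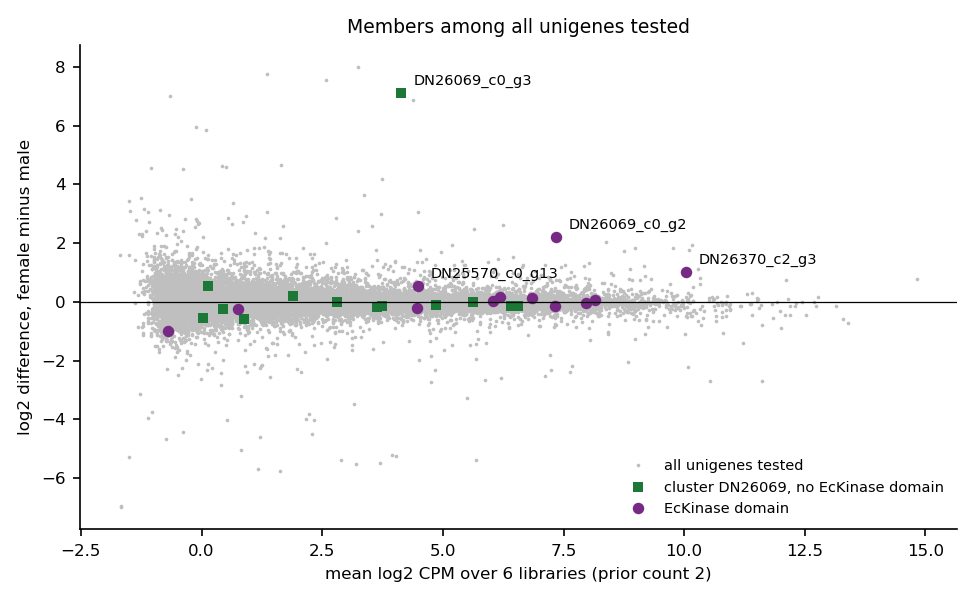
Log2 difference, female minus male, against mean log2 CPM for all 21196 tested unigenes in grey, with EcKinase members and other DN26069 unigenes marked. DN26069_c0_g3 at 7.11, DN26069_c0_g2 at 2.20 and DN26370_c2_g3 at 1.02 stand above the rest of the members.

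The ratio of counts to TPM gives the mean length of the transcripts to which the authors' counting assigned the reads. For DN26069_c0_g2 this length was 4350, 4345 and 4371 bases in females and 4885, 4886 and 4874 in males. The male values were all higher, close to the full 4910 bases, and the female mean minus the male mean was -526 bases. Of 4171 unigenes with more than 1 transcript and at least 10 TPM in every library, 98 (2.35%) had a log2 ratio of the lengths at least as far from 0 as the -0.16 of DN26069_c0_g2, in either direction, and in 274 (6.57%) every male library lay above every female one, against 5.13% with every female library above. For DN26069_c0_g3 the length was 636 ± 3.10 bases in females and 633 ± 48.5 in males (SD, n = 3 each), and the few male reads limit the second value.

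**Figure D5:**
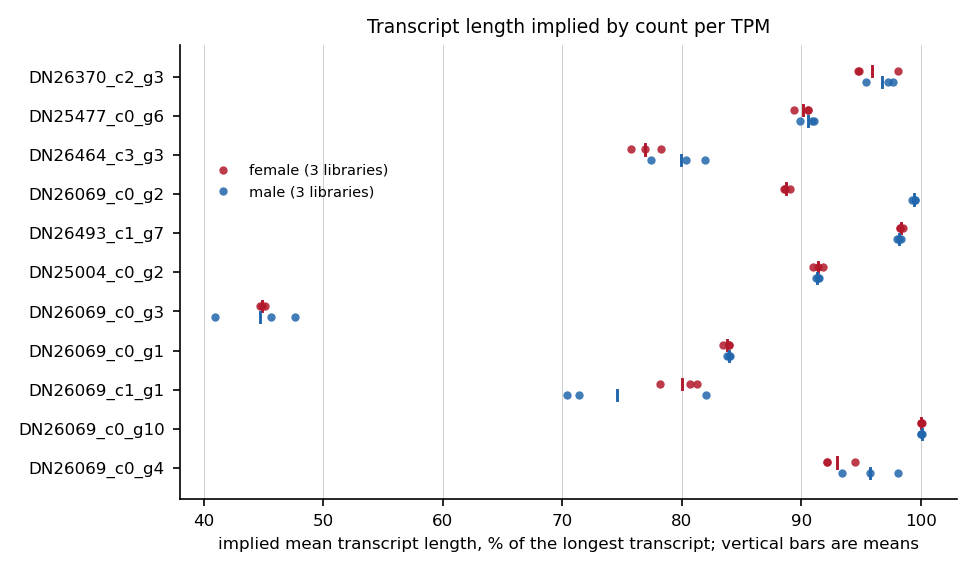
Implied mean transcript length, as a percent of the longest transcript, for members with more than 1 transcript and at least 10 TPM in every library, and for DN26069_c0_g3. Points are libraries and bars are means, and the sexes are apart for DN26069_c0_g2.

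The unigenes whose pattern was most like that of the pair were found by Pearson's r of log2 CPM over the 6 libraries, a description in which the difference between the sexes carries nearly all of the variation. For DN26069_c0_g2 the 5 highest were a cytochrome P450 4C1-like unigene, olfactory receptor 58, a transcription factor Sp9-like unigene, DN26069_c0_g3 and DN24939_c0_g1, an enzyme of phosphatidylethanolamine synthesis. The P450 had 220 CPM in females and 1.86 in males, the olfactory receptor 4.81 and 0.621, and the Sp9-like unigene 117 and 42.6. The value of r does not measure the size of a difference, and DN24939_c0_g1 had 290 and 217 CPM. For DN26069_c0_g3 the 5 highest were DN4114_c0_g1 without a hit, at 140 and 0.546 CPM, a band 7 protein at 157 and 65.9, that same P450 and an uncharacterized pair. The latter, DN25738_c1_g5 and DN25533_c2_g4, had 112 and 81.5 CPM and 122 and 62.4 CPM. An r above 0.99 was reached by 56 tested unigenes for DN26069_c0_g2 and by 60 for DN26069_c0_g3.

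Other genes of the ecdysteroid pathway were not called in either direction by edgeR or DESeq2, which called 2.8% and 3.86% of all tested unigenes. At those shares, lists this short would hold few calls or none, so the absence of calls says little about the pathway. Of 8 unigenes matched as synthesis genes 6 were tested, 2 with an unadjusted p under 0.05 beside the 12% of all tested unigenes, and their median log2 difference was 0.12. The highest of them was a torso-like protein at 18.2 CPM in females and 14.5 in males. It was matched by the word torso in its name, which does not make it a synthesis gene. For the P450 18a1, which inactivates ecdysteroids, the levels were 5.37 and 5.22 CPM. Of 23 receptor and response genes 16 were tested, 1 with an unadjusted p under 0.05, with a median of 0.07. Among these E75, a nuclear receptor induced by ecdysone, had 81.5 and 72.8 CPM. Of 5 related small-molecule kinases 4 were tested, 0 with an unadjusted p under 0.05, with a median of -0.04. The choline/ethanolamine kinase had 161 and 164 CPM. The words of that list also matched a gamma-secretase subunit, which is no kinase.

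The marker lists are given as counts beside the 2.8% of all unigenes called. Of 21 muscle genes edgeR called 4, all tropomyosins and troponins, higher in males, and DESeq2 called 10, beside its 3.86% of all. Of the 21, 12 had an unadjusted p under 0.05 in edgeR, beside 12% of all tested unigenes. Every male library lay above every female one in 10, beside 8.5% of all, and the median log2 difference was -0.53. Of 13 fat body and storage genes 3 were called higher in females and 1, the apolipophorins, in males, by edgeR and by DESeq2. The word transferrin also matched a pyruvate dehydrogenase kinase, 1 of those 3, and a phosphatase, both named acetyl-transferring, and the other 2 were vitellogenin-2-like. Of 20 head sense organ genes both tools called 2 higher in females, in edgeR the odorant receptor coreceptor at 370 and 158 CPM and the ultraviolet-sensitive opsin at 554 and 407. The median log2 difference of the 20 was -0.09. Every female library lay above every male one in 2 of the 20, beside 8.77% of all. Every male library lay above in 4, beside 8.5% of all. Gut genes gave 1 call in each direction among 19 by edgeR and 3 in each by DESeq2. Venom gland genes gave 2 calls higher in males among 21 by either tool, and the 3 ovary and 14 testis genes none. No list had a member at 0 in every library.

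The authors' deposited table marked 355 of 41986 unigenes as significant, among them DN26069_c0_g3, DN26069_c0_g2 and DN26370_c2_g3, and no other of the 27. DN26069_c0_g3 and DN26069_c0_g2 were chosen by their sex difference in these same libraries, so their marks are no further evidence. In the same order, the log2 fold changes in the authors' deposited table were 7.12, 2.21 and 1.03 for DN26069_c0_g3, DN26069_c0_g2 and DN26370_c2_g3. For DN25570_c0_g13 the authors' deposited table gave an FDR of 0.0334 and no mark of significance.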

How the data were processed

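Per the labels' protocols, adaptor and low-quality sequence was removed with Cutadapt and Perl scripts, and Trinity 2.4.0 built the transcriptome without a genome. Each unigene is the longest transcript of its group. How reads were counted, and which test the authors used, is not given in the sources used here. Per the file headers, the deposited table holds expected counts, which the authors left unscaled, and TPM, which they scaled within each library. Between 8.81% and 9.5% of the deposited counts per library were not whole, and they were rounded. The authors' log2 fold change, p-value and FDR, as deposited, were used only for comparison.

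Here edgeR 4.0.16 in R 4.3.3 (quasi-likelihood test with TMM factors, filterByExpr at 10 counts and a total of 15, Benjamini-Hochberg adjustment over 21196 unigenes, threshold 0.05) compared 3 female with 3 male libraries, grouped by labelled sex. DESeq2 1.42.0 was an alternative. The mean transcript length was taken from counts per TPM, scaled on unigenes with 1 transcript. The median shift of TPM was computed after the data were seen. The edgeR steps were tested on simulated data. They recovered 58.1% of 86 unigenes changed by a log2 of 1 and 92.8% of 111 changed by 2. Of the 167 calls made there, 14 were false.

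Members and lists were chosen with earlier results of these data known. Lists are words searched in the description of the best hit, and the accidental matches found were kept. Named unigenes are all of cluster DN26069, the EcKinase members past the threshold, of highest TPM or of smallest p, the highest and called members of the lists, and the 5 most alike to each of the pair. Neighbours in the other clusters were named because they were called. No sequences were used.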

Additional observations from a re-analysis of the deposited data

How the results depend on the processing

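Among the 12 alternatives that give values for single unigenes, no called member lost its call or changed direction. The log2 difference of DN26370_c2_g3 ran from 0.96 to 1.08, that of DN26069_c0_g2 from 2.18 to 2.23 and that of DN26069_c0_g3 from 6.99 to 7.30. DESeq2's Wald test called 458 of all unigenes higher in females and 359 in males, together 3.86%. Of the EcKinase members outside the cluster it called 2 higher in females and 0 in males. Summing counts by assembly cluster gave 193 calls in females and 147 in males over all clusters, and gives no value for a single unigene. Leaving out 1 library moved the counts over all unigenes by more than 1.5 times for female replicate 2, to 214 in females and 144 in males, and for male replicate 2, to 210 and 147. The highest counts, without female replicate 1, were 382 in females and, to 2 digits, 3.1e+02 in males. Leaving out 1 library gave 1 to 2 EcKinase calls in females, the second being DN25570_c0_g13 without female replicate 2, and 0 in males. With a replicate block the counts were 338 and 238 over all unigenes and 1 and 0 for EcKinase members. Deviations of same-numbered libraries correlated at -0.02, -0.07 and -0.01, and those of differently numbered ones between -0.04 and 0.06. These values show no pairing by number, but they cannot exclude that libraries were handled in pairs. The cause of the shifts in the counts of calls was not tested. Short members with few counts are limited by depth.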
